A study of Mus musculus with 18 samples.

Results

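The regions described here are 3 windows of 2 Mb that were set around the genes Gata3, Maf and Il10, each on another chromosome than the bait, in 4C data from mouse T cells. They were set by gene name and position, not by their values, though with earlier results of these data known. They hold 987 of the 384942 probes of each array, or 3 of the 1231 windows of this width. On the mouse build mm8 the Gata3 window is chr2:8800000-10800000 (band 2qA1, 325 probes), the Maf window chr8:117300000-119300000 (band 8qE1, 335 probes) and the Il10 window chr1:131800000-133800000 (band 1qE4, 327 probes). Among the windows of their own chromosomes these are 1 of 87, 1 of 61 and 1 of 95. No gene annotation of mm8 was used here, so the place of each gene inside its window was not checked, and exons, introns and UTRs cannot be assigned to its probes. In the gene order of GRCm38.p6, Gata3 lies between Celf2 and Taf3, Maf between Wwox and Dynlrb2, and Il10 between Il19 and Mapkapk2.

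CD4 T cells leave the naive state to become Th1 cells, which make interferon gamma, or Th2 cells, which make interleukin 4. Gata3 is the transcription factor that drives the Th2 fate, Maf is a transcription factor that turns on Il4 in Th2 cells, and Il10 encodes an anti-inflammatory cytokine that Th2 cells and other T cells secrete. In 4C, DNA fragments that lie near one chosen fragment, the bait, are joined to it by ligation, amplified and counted or hybridised, and contacts with other chromosomes (trans contacts) are weak next to those with the bait's own chromosome.

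The study placed baits at Ifng, on chromosome 10, and at Il4, on chromosome 11, and hybridised each 4C product (Cy5) together with doubly digested genomic DNA of matching cells (Cy3). The 18 arrays fall into 9 groups of 2. With the Ifng bait they are naive CD4 T cells, cells of the Th1 and Th2 types, Th1 cells with a Stat4 knockout (KO), and 3T3-L1, an established mouse fibroblast line that can turn into fat cells. With the Il4 bait they are naive, Th1 and Th2 cells, and Th2 cells with a Stat6 KO. Stat4 and Stat6 carry the signals of interleukin 12 and interleukin 4. The labels give no mouse strain, age, culture time or kind of allele, they name no treatment, and the 3T3-L1 arrays are tagged as primary T cells in one label field although their names say 3T3-L1. The design text calls the arrays biological replicates except 1 made from a pool, which the labels used here do not mark. No RNA was measured, so neither the knockouts nor the cell types could be checked against marker genes.

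The value used throughout is the level of a window, the mean log2 ratio of 4C over genomic DNA across its probes, after each array was set to 0 at the median of all probes off the bait chromosome. The highest window of the genome lay on the bait's chromosome in 18 of 18 arrays. The standard deviation (SD) of trans windows differed 4.07-fold among the Ifng arrays and 2.64-fold among the Il4 arrays, from 0.027 to 0.11 in all, and both Ifng Th1 arrays were the narrowest. Replicates correlated with r from 0.15 to 0.89 across trans windows. At the level of probes, 12 of 18 arrays correlated better with an array of another group than with their own replicate; Ifng Th1 replicate 2 and Il4 Th2 replicate 2 had r = 0.41 with each other, against 0.071 and 0.22 with their own replicates. Whether either array carries a wrong label was not tested. The group comparisons of the 3 windows, and the bands below, were also fitted without each of these arrays, while bait means and correlations between windows use all arrays. With 2 arrays a group, the number of arrays limits the precision.

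All 3 windows sat slightly above 0 with either bait. That 0 is the median of single probes, and the typical window was itself above it on most arrays. The median window of chromosome 2 ran from -0.0052 (Il4 naive replicate 2) to 0.0695 (Ifng Stat4 KO replicate 2). A level above 0 is therefore not by itself high for a window. With the Ifng bait the level over 10 arrays was 0.064 ± 0.054 (SD, n = 10) for Gata3, 0.069 ± 0.025 for Maf and 0.064 ± 0.026 for Il10. With the Il4 bait it was 0.062 ± 0.058 (SD, n = 8) for Gata3, 0.057 ± 0.055 for Maf and 0.056 ± 0.047 for Il10. The lowest, median and highest Ifng arrays were at -0.0018, 0.038 and 0.17 for Gata3, at 0.029, 0.064 and 0.11 for Maf, and at 0.031, 0.058 and 0.12 for Il10. The spread of the Gata3 window over Ifng arrays was thus about as large as its mean, while Maf and Il10 stayed above 0 in 10 of 10 arrays. In the Il4 arrays each of the 3 windows was above 0 in 7 of 8. Across all trans windows the mean Ifng and the mean Il4 level had r = 0.90 over 1109 windows, as a description of arrays that share probes, so like levels with both baits are the rule in these data.

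**Figure D1:**
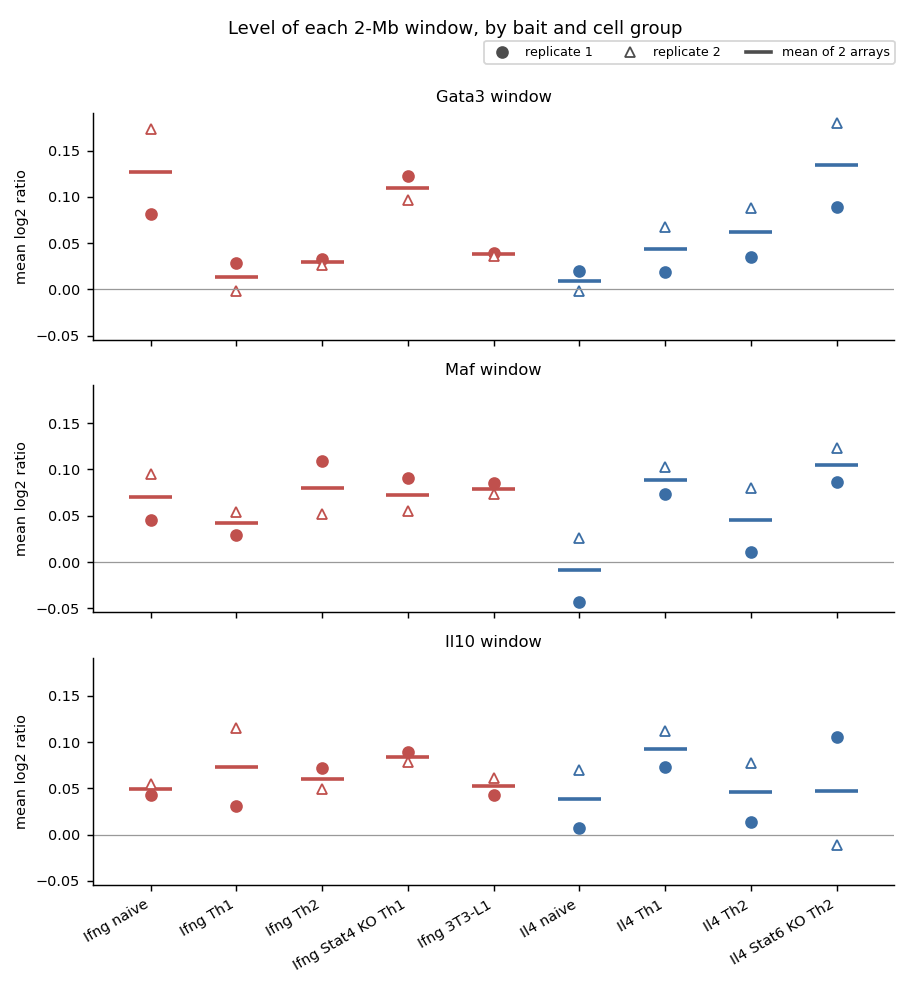
Level of the Gata3, Maf and Il10 windows (mean log2 ratio of 4C over genomic DNA, y axis) in each of the 9 groups (x axis; red, Ifng bait; blue, Il4 bait); symbols are the 2 arrays of a group and bars their mean. Gata3 has its highest values in the Ifng naive arrays (0.082 and 0.17) and the Il4 Stat6 KO arrays (0.089 and 0.18), while the groups of Maf and Il10 mostly overlap.

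Set against the median window of its own chromosome, the Il10 window was high with both baits. It was above that median in 8 of 10 Ifng arrays and in 8 of 8 Il4 arrays, and its excess was 0.032 (SE 0.0091, limma, adjusted p = 0.0085) with the Ifng bait and 0.049 (SE 0.015, limma, adjusted p = 0.026) with the Il4 bait. The Maf window was above its chromosome in 9 of 10 Ifng arrays, by 0.025 (SE 0.0081, limma, adjusted p = 0.017), and in 7 of 8 Il4 arrays, by 0.014 (SE 0.011, limma, adjusted p = 0.32). The Gata3 window exceeded its chromosome in 4 of 10 Ifng arrays and 7 of 8 Il4 arrays, by 0.022 (limma, adjusted p = 0.055) and 0.034 (limma, adjusted p = 0.067) on average. With 1-Mb windows both passed, at adjusted p = 0.018 and 0.0084 (limma). In these tests the excess is the mean of the group means, and its error comes from the spread between replicates, not between groups. With the Ifng bait the Gata3 excess at 2 Mb was 0.11 in naive and 0.050 in Stat4 KO arrays. It was -0.027 in Th1, -0.0125 in Th2 and -0.0089 in 3T3-L1 arrays. Of all windows, 32.8% were called higher than their chromosome and 28.6% lower with the Ifng bait, and 27.1% higher and 24.1% lower with the Il4 bait, so a call of this kind is common and does not set these windows apart. The Ifng calls ended when each array was divided by the spread of its trans windows (adjusted p = 0.061 for Maf and 0.069 for Il10) and when the median of probes replaced the mean (0.36 and 0.16). The Il4 call of Il10 ended without Il4 naive replicate 2 (adjusted p = 0.053), Th1 replicate 2 (0.105), either Th2 array (0.057 and 0.105) or Stat6 KO replicate 1 (0.083), and the Ifng call of Maf without Th1 replicate 2 (0.061), Th2 replicate 1 (0.069) or 3T3-L1 replicate 1 (0.051).

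By rank among the windows of its chromosome, each window varied widely between arrays. The median rank of Gata3 with the Ifng bait was below the middle, although its mean excess was positive. Gata3 ranged from percentile 7 of chromosome 2 in Ifng Th1 replicate 2 to 94.2 in Il4 Stat6 KO replicate 2, with a median of 43 over Ifng arrays and 68 over Il4 arrays. Maf ranged from percentile 0 of chromosome 8, the lowest window there, in Il4 naive replicate 1 to 85 in 3T3-L1 replicate 1. Its median was 65 over Ifng arrays and 57 over Il4 arrays. Il10 ranged from percentile 34 of chromosome 1 in Ifng Th1 replicate 1 to 96.8 in Ifng Th1 replicate 2, so its extremes were the 2 arrays of a single group. Its median was 69 over Ifng arrays and 76 over Il4 arrays.

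The Gata3 window was lower in Th1 than in naive cells when Ifng was the bait. Its level was 0.082 and 0.17 in the naive arrays and 0.029 and -0.0018 in the Th1 arrays. The groups did not overlap, and the window went from ranks 21 and 15 from the top of the 87 windows of chromosome 2 to ranks 67 and 81. The difference was -0.11 (SE 0.030, limma, adjusted p = 0.0085), where 43.3% of all 1168 trans windows were called. The called windows split into 330 higher and 176 lower, into 345 and 7 after division by the spread alone, and into 5 and 21 when windows were centred first. This was the only one of the 3 windows called in any of the 13 comparisons between groups or baits. The call was lost without naive replicate 2 (-0.068, limma, adjusted p = 0.15), without Th1 replicate 1 (-0.13, adjusted p = 0.056) and without Th1 replicate 2 (-0.098, adjusted p = 0.059), and it was lost within the arrays numbered 31 (-0.098, adjusted p = 0.077) and with the median of probes (-0.030, adjusted p = 0.26). The Th1 arrays had the narrowest trans windows (SD 0.027 and 0.032, against 0.076 and 0.11 in naive). After each array was divided by its spread, the adjusted p was 0.26 if windows were not centred first and 0.048 if they were, the second being a setting added after seeing the data.

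In the other Ifng comparisons the Gata3 window missed the threshold. Its level in Th2 cells was 0.033 and 0.027, below both naive arrays, and differed from naive by -0.097 (SE 0.030, limma, adjusted p = 0.064), where 5.31% of windows were called (23 higher and 39 lower, or 0 and 9 after centring and scaling). This comparison shares its naive arrays with the one before. Its naive arrays are numbered 31 and its Th2 arrays 40, so array number and group cannot be told apart within it. It passed the threshold against the median of chromosome 2 (-0.12, limma, adjusted p = 0.031), with 1-Mb windows (-0.15, adjusted p = 0.015) and without naive replicate 1 (-0.14, adjusted p = 0.0069). The Stat4 KO arrays stood at 0.12 and 0.097, above both Th1 arrays, with a difference of 0.096 (SE 0.030, limma, adjusted p = 0.082), where 0.942% of windows were called. Stat4 KO and naive arrays overlapped. The Th2 and Th1 arrays overlapped too, and their difference of 0.017 had a 95% interval from -0.046 to 0.079, with 0.599% of windows called. In 3T3-L1 the level was 0.039 and 0.036, and its difference from the mean of the naive, Th1 and Th2 groups was -0.019 (95% interval -0.070 to 0.032), with 18.2% of windows called. With 1-Mb windows that difference was -0.094 and passed (limma, adjusted p = 0.034). In the order of means, naive was highest, then Stat4 KO, 3T3-L1, Th2 and Th1; naive and Stat4 KO, and Th2 and Th1, did not differ beyond their SD.

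With the Il4 bait the order of the Gata3 levels was another one. Naive arrays were lowest, at 0.020 and -0.0018, followed by Th1 at 0.019 and 0.068, Th2 at 0.035 and 0.088, and Stat6 KO at 0.089 and 0.18. Neighbouring groups overlapped, except that both Stat6 KO arrays were above both Th2 arrays. No difference passed the test: Th1 minus naive was 0.035 (95% interval -0.062 to 0.13), Th2 minus naive 0.053 (-0.044 to 0.15), Th2 minus Th1 0.018 (-0.079 to 0.11) and Stat6 KO minus Th2 0.073 (-0.024 to 0.17). Limma called 0% of the 1172 windows in each of these 4 comparisons; 61, 23, 54 and 102 windows had an unadjusted p under 0.05. An absence of calls on the Il4 arrays is therefore shared by the whole genome and says nothing of these windows alone. In simulated data for Il4 Th2 minus Th1, with 200 of 1172 windows changed, a change of 0.1 was recovered in 12% of the changed windows. Recovery with fewer changed windows was not simulated.

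No difference in Maf between cell groups passed the test. With the Ifng bait its level was 0.046 and 0.095 in naive, 0.029 and 0.054 in Th1, 0.11 and 0.051 in Th2, 0.090 and 0.055 in Stat4 KO and 0.085 and 0.073 in 3T3-L1. All neighbours in the order of means overlapped and lay within 1 SD of each other. The differences were -0.029 for Th1 minus naive (95% interval -0.089 to 0.032), 0.0097 for Th2 minus naive (-0.051 to 0.070), 0.038 for Th2 minus Th1 (-0.022 to 0.099), 0.031 for Stat4 KO minus Th1 (-0.030 to 0.092) and 0.015 for 3T3-L1 minus T cells (-0.034 to 0.065). With the Il4 bait the naive arrays were at -0.043 and 0.026, the Th1 arrays at 0.074 and 0.10, the Th2 arrays at 0.011 and 0.080, and the Stat6 KO arrays at 0.087 and 0.12. Both Th1 arrays lay above both naive arrays, by 0.097 on average, with an unadjusted p of 0.045 and an adjusted p of 0.64 in limma. Both Stat6 KO arrays lay above both Th2 and both naive arrays, and Stat6 KO minus Th2 was 0.060 (95% interval -0.034 to 0.15, limma, adjusted p = 0.63).

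No difference in Il10 passed the test either. Its Ifng levels were 0.043 and 0.055 in naive, 0.031 and 0.12 in Th1, 0.072 and 0.049 in Th2, 0.089 and 0.079 in Stat4 KO and 0.043 and 0.061 in 3T3-L1. The differences were 0.024 for Th1 minus naive (95% interval -0.037 to 0.085), 0.012 for Th2 minus naive (-0.050 to 0.073), -0.013 for Th2 minus Th1 (-0.074 to 0.049), 0.011 for Stat4 KO minus Th1 (-0.051 to 0.072) and -0.0087 for 3T3-L1 minus T cells (-0.059 to 0.041). Its Il4 levels were 0.0067 and 0.070 in naive, 0.073 and 0.11 in Th1, 0.014 and 0.077 in Th2, and 0.11 and -0.011 in Stat6 KO. Neighbours in the order of means overlapped with both baits. Groups further apart did not all overlap: both Stat4 KO arrays were above the naive, Th2 and 3T3-L1 arrays, and both Il4 Th1 arrays above both naive arrays (0.054, 95% interval -0.053 to 0.16). Many of these small differences changed sign under other processing settings.

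**Figure D2:**
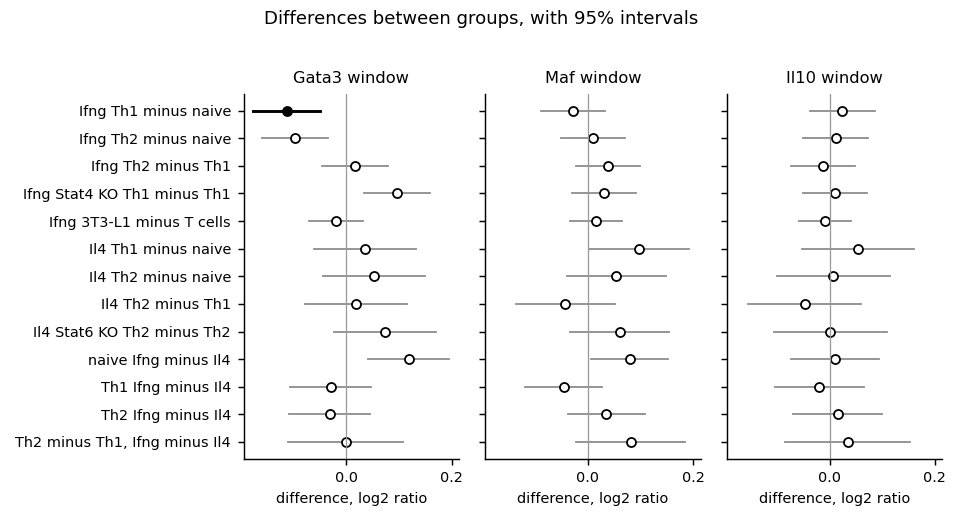
Difference in level (log2 ratio, x axis) of the Gata3, Maf and Il10 windows in 13 comparisons (y axis), with the 95% interval of the limma fit; a filled point marks an adjusted p below 0.05. The filled point is Gata3 in Ifng Th1 minus naive, at -0.11; all other points are open.

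The same cells were also compared between baits. In naive cells the Gata3 window was higher on the Ifng arrays (0.082 and 0.17) than on the Il4 arrays (0.020 and -0.0018), with a difference of 0.12 (SE 0.036, limma, adjusted p = 0.22), where 0.631% of windows were called. Maf was higher on the Ifng arrays by 0.079 (SE 0.035, adjusted p = 0.70 in limma) and Il10 by 0.010. In Th1 cells the differences were -0.030, -0.046 and -0.019 for Gata3, Maf and Il10, with 3.16% of windows called (0 higher and 35 lower, or 177 and 11 after division by the spread alone), and in Th2 cells -0.032, 0.035 and 0.015, with 0% called by limma and 57 windows at an unadjusted p under 0.05. The test of whether Th2 minus Th1 differs between baits gave -0.0014 for Gata3 (95% interval -0.11 to 0.11), 0.081 for Maf (-0.022 to 0.18) and 0.034 for Il10 (-0.084 to 0.15). Limma called 0% of windows there and 232 had an unadjusted p under 0.05. Without the Ifng Th1 and Il4 Th2 arrays numbered 2, the Gata3 value of that test turned to 0.010.

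The windows were then split into 4 segments of 500 kb each, in a fit over all trans bins of that width that was added after seeing the data. In the Gata3 window the naive signal with the Ifng bait was highest in the segment from -500 kb to the centre (88 probes), at 0.21 and 0.31. The same segment was at 0.074 and 0.019 in Th1, 0.0049 and 0.00070 in Th2, 0.061 and 0.16 in Stat4 KO, and -0.0073 and -0.030 in 3T3-L1. Both naive arrays were above the 8 other Ifng arrays. How many of all bins set a group apart in this way was not counted. The limma differences were -0.21 for Th1 minus naive (SE 0.049, adjusted p = 0.0060), -0.26 for Th2 minus naive (SE 0.049, adjusted p = 0.0021) and -0.12 for 3T3-L1 minus T cells (SE 0.040, adjusted p = 0.047), where 14.6%, 1.83% and 11.1% of 4655 bins were called. The first and last share the naive arrays with the second. The naive and Th2 arrays of the second also come from different array series. All 3 calls were lost after quantile normalization (adjusted p = 0.15, 0.13 and 0.062) and without naive replicate 2 (0.11, 0.056 and 0.086). The Th1 call was also lost without Th1 replicate 2 (0.056). The 3T3-L1 call was kept without naive replicate 1 (0.017) and lost when any other array was left out. With the array series as a block the first 2 had adjusted p = 0.075 and 0.57 (limma), and after centring and scaling 0.11 and 0.063. The 3T3-L1 call was kept after centring and scaling (limma, adjusted p = 0.044). Division by the spread alone ended all 3 calls (limma, adjusted p = 0.21, 0.35 and 0.094).

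With the Il4 bait the naive arrays were the lowest in that segment. They were at 0.024 and 0.032, Th1 at 0.045 and 0.085, Th2 at 0.12 and 0.16, and Stat6 KO at 0.21 and 0.22. The 4 groups did not overlap, but how many of all bins separate them so was not counted. Limma called 0% of the 4669 bins in each of the 4 Il4 comparisons. For this segment the lowest adjusted p of the 4 was 0.81, in Stat6 KO minus Th2 (limma). In Th1 minus naive and Th2 minus naive, 196 and 101 bins had an unadjusted p under 0.05. In Th2 minus Th1 and Stat6 KO minus Th2 the numbers were 211 and 348. Between baits, the naive difference of this segment was 0.23 (SE 0.050, limma, adjusted p = 0.036), where 0.407% of 4418 bins were called. That call was lost after division by the spread alone (limma, adjusted p = 0.42) and after centring and scaling (0.43). Without Ifng naive replicate 2 the difference was 0.19 (adjusted p = 0.40), and after quantile normalization 0.15 (0.93). It stayed at 0.23 and 0.24 without either Il4 naive array (adjusted p = 0.12 and 0.058) and at 0.23 with the series as a block (0.23), but the calls ended.

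**Figure D3:**
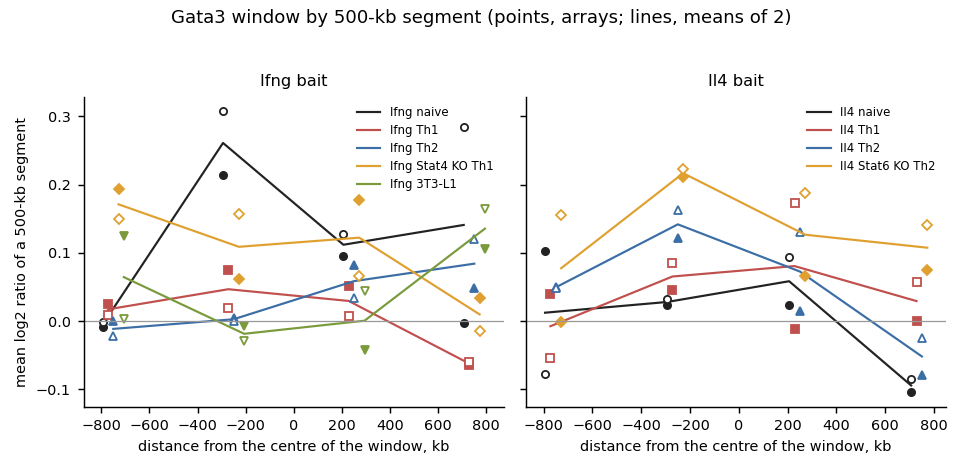
Level of the 4 segments of the Gata3 window (mean log2 ratio, y axis) by distance from its centre in kb (x axis), with the Ifng bait (left) and the Il4 bait (right); lines are means of 2 arrays, filled symbols replicate 1 and open symbols replicate 2. From -500 kb to 0 the Ifng naive arrays are at 0.21 and 0.31 and the Il4 Stat6 KO arrays at 0.21 and 0.22.

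The last segment of the Gata3 window, from 500 to 1000 kb past the centre, held the other called segment. Naive arrays were at -0.0024 and 0.28 and Th1 arrays at -0.064 and -0.060, a difference of -0.20 (SE 0.059, limma, adjusted p = 0.022). Without naive replicate 2 it was -0.060 (adjusted p = 0.59). Without either Th1 array it stayed at -0.20, but the call was lost (adjusted p = 0.14 and 0.070). The call was also lost after quantile normalization (0.073), with the series as a block (0.090) and after division by the spread alone (0.064), and kept after centring and scaling (0.033). This segment held 62 probes, the fewest of the 12.

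No segment of Maf or Il10 was called in the main fit. The highest segment of the Il10 window lay from the centre to 500 kb past it (90 probes), with a mean of 0.13 over Ifng arrays and 0.11 over Il4 arrays. There the 3T3-L1 arrays, at 0.036 and -0.00040, were below the 8 T-cell arrays of the Ifng bait, the lowest of which was at 0.053, and the limma difference was -0.12 (SE 0.042, adjusted p = 0.055). In the first segment of Il10 the 3T3-L1 arrays were high instead, at 0.15 and 0.088, with a difference of 0.12 (limma, adjusted p = 0.057). After centring and scaling both Il10 differences passed the threshold (limma, adjusted p = 0.041 and 0.04997). Some segments of Maf and Il10 also passed with a single array left out. The segments of Maf had means from 0.037 to 0.11 with the Ifng bait, the highest being the one just before the centre. No segment was called in the remaining comparisons, in which the share of all bins called was 0% for Ifng Th2 minus Th1 (702 bins at an unadjusted p under 0.05), 0.387% for Stat4 KO minus Th1, 1.79% for Th1 between baits, 0% for Th2 between baits (227 bins at an unadjusted p under 0.05) and 0.0226% for the test of Th2 minus Th1 between baits.

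The windows were then set beside the 2 windows on each side of them on the chromosome. The window just after Il10, 2 Mb further along chromosome 1, had a mean of 0.13 with the Ifng bait and 0.15 with the Il4 bait, and was above the Il10 window in 8 of 10 and 8 of 8 arrays. The Maf window was below the second window before it, at 0.12 and 0.14, in 9 of 10 Ifng arrays and 8 of 8 Il4 arrays. It was above the window just before it, at 0.051 and 0.029, in 7 of 10 and 7 of 8 arrays, and below the next window in 8 of 10 and 7 of 8. Gata3 exceeded the window just before it, at 0.0053 and -0.029, in 7 of 10 and 8 of 8 arrays, and was close to the window after it, at 0.062 and 0.068.

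**Figure D4:**
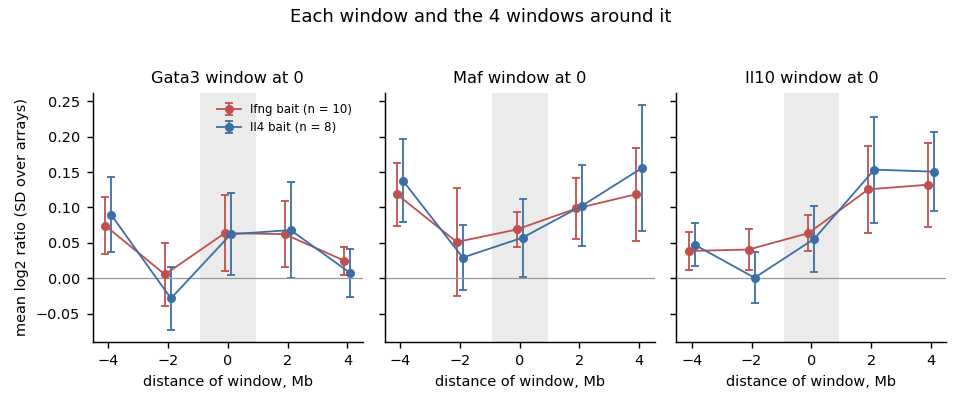
Mean level (log2 ratio, y axis; bars, SD over arrays) of the Gata3, Maf and Il10 windows (grey, at 0) and of the 2 windows of 2 Mb on each side (x axis, distance in Mb), for the Ifng bait (red, n = 10) and the Il4 bait (blue, n = 8). The windows after Il10 lie at 0.13 and 0.15; Maf lies above the window just before it and below the next one.

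Over the 18 arrays the windows did not move as one. Gata3 and Maf had r = 0.56, Maf and Il10 r = 0.35, and Gata3 and Il10 r = -0.15, as descriptions over arrays that share cells, baits and spread. The median r with all 1104 other windows compared was 0.11 for Gata3, 0.25 for Maf and 0.16 for Il10. By the rule of highest r, the windows most like Gata3 began at 68800000 on chromosome 2 (band 2qC2, r = 0.80) and at 70000001 on chromosome 12 (band 12qC2, r = 0.76), followed by one in band 18qA1 (r = 0.75). Those most like Maf were in bands 13qA5 (r = 0.88), 17qA1 (r = 0.83) and 6qB2.3 (r = 0.83), and those most like Il10 in bands 1qC3 (r = 0.78), 3qF2.2 (r = 0.78) and 4qB3 (r = 0.77).

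Other genes of the 2 programmes were placed by chromosome band, which is far wider than a window. Of 26 other Th2 genes, 15 were placed in 15 bands, and of 22 Th1 genes 14 in 11 bands. The rest lay on the bait chromosomes or too near a band edge. The Th2 bands 2qA1 and 1qE4 also hold the Gata3 and Il10 windows, and the band 9qF3 is in both lists. In Ifng Th1 minus naive, limma called 1 Th2 band higher and 5 lower, and 2 Th1 bands higher and 2 lower, where 42.7% of all 372 bands were called, 113 higher and 46 lower. Without Ifng Th1 replicate 2, 1 Th2 band was called higher and 3 lower, and 1 Th1 band higher and 1 lower, with 91 higher and 33 lower over all bands; without Th1 replicate 1 no band of either list was called, with 0 higher and 2 lower over all. Without naive replicate 2 the calls of the listed bands ended, except that of Cyp11a1. The median change was then -0.025 over the Th2 bands and -0.00081 over the Th1 bands, against 0.023 over all bands. Without naive replicate 1 it was -0.059 and -0.033, against 0.022 over all bands. The lower Th2 bands included 9qB with Cyp11a1, an enzyme of steroid synthesis (-0.12, SE 0.021, adjusted p = 0.0053), and 1qB with Il1rl1, the interleukin 33 receptor (-0.056, adjusted p = 0.020). The others were those of Ecm1 (-0.067), Epas1 (-0.062) and Notch1 (-0.047), and the higher Th2 band was that of Il21, a cytokine gene (0.051). The band 1qB also holds the Th1 genes Il18r1 and Il18rap, which encode the interleukin 18 receptor. Of the Th1 bands, that of Runx3, a partner of T-bet in Th1 cells, was lower (-0.13, SE 0.027, adjusted p = 0.0073), and those of Stat4 (0.064) and of Il12rb2 (0.051) were higher. With all arrays the median change was -0.046 over the Th2 bands and -0.021 over the Th1 bands, against 0.022 over all bands. When arrays were divided by their spread without centring, 5 Th2 bands and 4 Th1 bands were called, all higher. Over all 372 bands 187 were then called higher and 1 lower (50.5%), so the direction of these counts depends on the scaling. In 3T3-L1 minus T cells 0 Th2 bands, 1 Th1 band higher (that of Hlx, 0.090) and 1 lower (that of Runx3, -0.098) were called, with 18.3% of bands called, 53 higher and 15 lower. After division by the spread alone the Runx3 call ended (limma, adjusted p = 0.10), and 1 Th2 band, that of Ptgdr2, a prostaglandin receptor, was called higher (adjusted p = 0.043). The Runx3 call also ended without 3T3-L1 replicate 1 (-0.069) and the Hlx call without 3T3-L1 replicate 2 (0.069). Without naive replicate 1 some Th2 bands were called lower. The median change over the Th2 bands was then -0.018, against -0.016 with all arrays, and over all bands 0.013, against 0.011. In Th2 minus Th1 the band changes of the listed genes ran from -0.039 (Stat4) to 0.10 (Runx3) with the Ifng bait and from -0.096 (Runx3) to 0.00032 (Stat4) with the Il4 bait, none of them called. In the 11 other comparisons no band of either list was called; of all bands 6.45% were called in Ifng Th2 minus naive, 0.282% in naive and 0.847% in Th1 between baits, and 0% in the rest. In Th1 between baits, division by the spread alone called 2 bands of each list higher, with 92 higher and 0 lower over all bands, where 0 and 3 were called before. In Stat6 KO minus Th2, bands of the Th2 list and others were called only without Stat6 KO replicate 1. The median change over the Th2 bands was then 0.042, against 0.044 over all bands.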

How the data were processed

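The 18 files hold 1 deposited value per probe, taken as the log2 ratio of Cy5 (4C DNA) over Cy3 (genomic DNA) per the labels' protocols; the base of the logarithm, the scanner software, the normalization and the build are not given in the sources used here. Chromosome ends fitted mm8, with 0 of 21 chromosomes having a probe past the end. The median of all probes off the bait chromosome was subtracted from every array, and values were averaged over windows of 2 Mb with at least 200 probes (500-kb bins, at least 50). Groups came from titles and source names. Each bait's arrays, or all 18 for comparisons between baits, were fitted in limma 3.58.1 (lmFit, eBayes, two-sided), with Benjamini-Hochberg adjustment over all trans windows and a threshold of 0.05. The fit was tested on simulated data with 200 changed windows, of 1168 for Ifng and 1172 for Il4. Fewer changed windows were not simulated. A change of 0.1 was recovered in 72% of the changed windows for Ifng Th2 minus Th1 and in 12% for Il4 Th2 minus Th1. A change of 0.2 was recovered in 100% and 85%, with 4.44% and 3.96% false calls. Levels were set against the median window of the chromosome. Array series is the first digits of the array number. Alternatives were spread scaling, quantile normalization, medians, the chromosome reference, 1-Mb windows, blocks and left-out arrays. The windows and gene lists were chosen with earlier results of these data known. Named beyond these windows are their neighbours, the 3 windows of highest r, list genes whose band was called, and those with the extreme band changes in Th2 minus Th1; 1 listed gene is not reported here. Gene names and bands follow GRCm38.p6 RefSeq and circlize 0.4.16.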

Additional observations from a re-analysis of the deposited data

How the results depend on the processing

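The values are small log2 differences between groups of 2 arrays, and neither the logarithm's base nor the steps before deposit are known here. Array number, array spread and group are partly mixed. For the Stat4 KO, Stat6 KO and 3T3-L1 groups the array series and the group cannot be told apart. The Ifng naive and Th2 groups share no series either, with both naive arrays in 31 and both Th2 arrays in 40. A series block links them only through the Ifng Th1 arrays. The cause of each change below was not tested. Centring before scaling, the 500-kb bins, the left-out arrays in the bands and leaving out both arrays numbered 2 were chosen after seeing the data.

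The number of windows called varied with the setting. Ifng Th1 minus naive had 506 calls, and 317 after quantile normalization, 327 with the median of probes, 322 with the series as a block or within series 31, and 26 after centring and scaling; with scaling alone 345 windows were called higher and 7 lower, where 330 and 176 were before, and the median of all windows moved by 1.83 units of spread. Ifng Th2 minus naive went from 62 to 0 with scaling alone, 24 with quantile normalization, 0 with the median, 9 with centring and scaling and 2 with the series block. Ifng Th2 minus Th1 went from 7 to 273 with the median, 4 with 1-Mb windows, 3 with the replicate block and 0 under both scalings, quantile normalization, the chromosome reference, the series block and within series 40. Stat4 KO minus Th1 went from 11 to 1 under both scalings and 0 with quantile normalization, the median or the chromosome reference. The 3T3-L1 comparison went from 213 to 100 with the median and 368 with 1-Mb windows, and Il4 Th2 minus naive from 0 to 1 with scaling alone. Levels above or below the chromosome were called in 1265 Ifng and 1113 Il4 windows of 1 Mb, against 717 of 1168 and 601 of 1172 windows of 2 Mb. Windows of 1 Mb are more numerous, so a higher count with them does not mean a higher share, here or in the other comparisons. Between baits, naive went from 7 to 0 under both scalings and the median and 13 with 1-Mb windows; Th1 from 35 to 188 with scaling alone, 0 with quantile normalization or the median, 19 with the chromosome reference and 2 with the series block; and the bait test of Th2 minus Th1 from 0 to 2 with 1-Mb windows.

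Leaving out 1 array gave 78 to 566 calls for Ifng Th1 minus naive, 16 to 139 for Th2 minus naive, 0 to 12 for Th2 minus Th1, 0 to 65 for Stat4 KO minus Th1, 34 to 291 for 3T3-L1, 279 to 740 for the Il4 levels, 5 to 27 for naive between baits and 0 to 0 for Th1 between baits. The replicate numbers do not pair the arrays: of 16 pairs of groups, same-numbered arrays deviated together with r over 0.1 in 7, with r from -0.51 to 0.54. With the replicate block Gata3 in Ifng Th1 minus naive was -0.11 (limma, adjusted p = 0.010), 496 windows were called there, and no call of the 3 windows changed.

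The calls of the 3 windows and the called segments were lost in 27 and kept in 29 of the tests that left out 1 array. In the other alternatives they were lost in 27 and kept in 26. New calls appeared in 4 and 8 tests, 11 of them for Gata3. The other 1 was for Il10 in Ifng Th1 minus naive with scaling alone (3.03 units of spread, limma, adjusted p = 0.048), where other settings turned its sign. The sign turned in 21 and 64, all in differences that had not been called, while 177 and 258 such results kept their sign without a call. Segments that the main fit did not call are outside all these counts. With 1-Mb windows the sign turned in Ifng Th2 minus naive (Maf -0.021), Ifng Th2 minus Th1 (Gata3 -0.0071), Ifng Stat4 KO Th1 minus Th1 (Il10 -0.013), Il4 Stat6 KO Th2 minus Th2 (Il10 -0.011), Th1 Ifng minus Il4 (Il10 0.011), Th2 minus Th1, Ifng minus Il4 (Il10 -0.0090). With the array series as a block the sign turned in Ifng Th1 minus naive (Il10 -0.018), Ifng Th2 minus naive (Maf -0.016, Il10 -0.073). After centring on the windows and dividing by the trans spread the sign turned in Ifng Th2 minus naive (Maf -0.14, Il10 -0.26), Ifng Stat4 KO Th1 minus Th1 (Il10 -1.19), Il4 Th1 minus naive (Gata3 -0.34), Il4 Th2 minus Th1 (Maf 0.031, Il10 0.0018), Il4 Stat6 KO Th2 minus Th2 (Gata3 -0.17, Maf -0.088, Il10 -1.14), Th1 Ifng minus Il4 (Il10 0.78), Th2 Ifng minus Il4 (Maf -0.082, Il10 -0.54), Th2 minus Th1, Ifng minus Il4 (Il10 -1.32). After dividing by the trans spread alone the sign turned in Ifng Th1 minus naive (Maf 1.11), Ifng Th2 minus Th1 (Gata3 -0.023, Maf -0.31), Ifng Stat4 KO Th1 minus Th1 (Maf -0.31, Il10 -1.66), Ifng 3T3-L1 minus T cells (Gata3 0.31), Il4 Stat6 KO Th2 minus Th2 (Il10 -0.49), Th1 Ifng minus Il4 (Gata3 0.040, Maf 0.63, Il10 2.19), Th2 minus Th1, Ifng minus Il4 (Il10 -1.94). With the median of probes the sign turned in Ifng Th1 minus naive (Il10 -0.025), Ifng Th2 minus naive (Il10 -0.0025), Ifng Th2 minus Th1 (Il10 0.022), Ifng Stat4 KO Th1 minus Th1 (Maf -0.010), Ifng 3T3-L1 minus T cells (Maf -0.0083), Il4 Th1 minus naive (Gata3 -0.0075), Il4 Th2 minus Th1 (Il10 0.0025), Il4 Stat6 KO Th2 minus Th2 (Il10 -0.030), Th2 Ifng minus Il4 (Il10 -0.0050). Against the median of the same chromosome the sign turned in Ifng Th1 minus naive (Il10 -0.016), Ifng Th2 minus naive (Maf -0.027, Il10 -0.026), Ifng Stat4 KO Th1 minus Th1 (Il10 -0.0053), Ifng 3T3-L1 minus T cells (Maf -0.0096), Il4 Th1 minus naive (Gata3 -0.0061), Il4 Th2 minus naive (Il10 -0.022), Il4 Th2 minus Th1 (Maf 0.00090), naive Ifng minus Il4 (Il10 -0.0046), Th2 Ifng minus Il4 (Il10 -0.0088). After quantile normalization the sign turned in Ifng Th2 minus naive (Il10 -0.0047), Ifng Stat4 KO Th1 minus Th1 (Il10 -0.022), Ifng 3T3-L1 minus T cells (Il10 0.00019), Il4 Stat6 KO Th2 minus Th2 (Il10 -0.041), naive Ifng minus Il4 (Il10 -0.013), Th2 Ifng minus Il4 (Maf -0.0023, Il10 -0.027), Th2 minus Th1, Ifng minus Il4 (Il10 -0.026). Within the arrays numbered 31 the sign turned in Ifng Th1 minus naive (Il10 -0.018), Il4 Th2 minus naive (Maf -0.015, Il10 -0.056). Without the Ifng Th1 and Il4 Th2 arrays numbered 2 the sign turned in Th2 minus Th1, Ifng minus Il4 (Gata3 0.010). With 1 array left out, the values ran as follows where a sign turned: Ifng Th1 minus naive for Il10 from -0.018 to 0.066, Ifng Th2 minus naive for Maf from -0.019 to 0.038, Ifng Th2 minus Th1 for Il10 from -0.055 to 0.030, Ifng Stat4 KO Th1 minus Th1 for Il10 from -0.032 to 0.053, Ifng 3T3-L1 minus T cells for Il10 from -0.023 to 0.0054, Il4 Th2 minus naive for Il10 from -0.025 to 0.039, Il4 Th2 minus Th1 for Gata3 from -0.0089 to 0.045, Il4 Stat6 KO Th2 minus Th2 for Il10 from -0.057 to 0.060, naive Ifng minus Il4 for Il10 from -0.021 to 0.042, Th1 Ifng minus Il4 for Il10 from -0.062 to 0.023, Th2 Ifng minus Il4 for Il10 from -0.017 to 0.047, Th2 minus Th1, Ifng minus Il4 for Gata3 from -0.028 to 0.025, Th2 minus Th1, Ifng minus Il4 for Il10 from -0.0079 to 0.077.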
